A study of Mus musculus with 12 samples.

Results

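Spi1 and Cebpa encode the transcription factors PU.1 and C/EBPα, and the values below are the chromosome contacts of their promoters in fetal and adult haematopoietic stem cells (HSCs). The members were all contacts in the deposited promoter Capture-C table whose promoter carries either gene's name, once the number that marks an alternative promoter is removed. The table uses Sfpi1, the older symbol of Spi1, and holds no contact under the newer one. This gave 16 contacts from 3 captured Spi1 fragments and 7 contacts from 1 captured Cebpa fragment, which is 23 of 89545 contacts and 4 of 3781 promoter entries. All 4 entries belong to the first of 2 capture batches, where they are 4 of 1952 entries and 23 of 49944 contacts.

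In promoter Capture-C, fragments of fixed chromatin that were close in the nucleus are ligated to each other, and probes then pull out the ligation products of chosen promoters. Here chromatin was cut with DpnII and captured with SureSelect probes. Fetal HSCs came from livers of B6129SF1 embryos at embryonic day 14.5, and adult HSCs from bone marrow of B6129SF1 mice aged 6 to 8 weeks. Both were sorted as Lin-Sca1+cKit+CD135- cells, a gate on the surface that also admits multipotent progenitors, so either population may hold both. Each population has 4 libraries, 2 in each batch, with no genetic or drug treatment in either. Samples of the HPC7 cell line, wild type and TCF3 knockout, were not analysed here. The deposited values give 1 number per contact and population, and none per library. There is therefore no replicate spread, no test between the populations and no p-value in what follows.

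PU.1 is an ETS-family factor needed for macrophages, granulocytes and B cells, and its level helps to set which of these fates a progenitor takes. C/EBPα opens the granulocyte and monocyte programme and is required for the step from common myeloid to granulocyte-monocyte progenitors. PU.1 and the erythroid factor GATA1 bind and inhibit each other. Spi1 has a well-studied upstream regulatory element, about 14 kb before its promoter in the mouse, and Cebpa has a myeloid enhancer about 37 kb after its promoter.

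The promoter of Cebpa is printed because DpnII sites bound the fragments that were captured, and because it shows what C/EBP and ETS sequence lies at the start site. RefSeq gave a promoter sequence for 1 of the 2 genes. It runs from 250 bases before the start site to 50 after it, at chr7:35119043-35119342 on the plus strand of GRCm38.p6, which is another build than the mm9 of the contacts. Capitals mark the DpnII site GATC, the sequence TTGCGC, which is the first part of the site bound by C/EBP factors, and the TATA box sequence TATAAA.

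Cebpa promoter: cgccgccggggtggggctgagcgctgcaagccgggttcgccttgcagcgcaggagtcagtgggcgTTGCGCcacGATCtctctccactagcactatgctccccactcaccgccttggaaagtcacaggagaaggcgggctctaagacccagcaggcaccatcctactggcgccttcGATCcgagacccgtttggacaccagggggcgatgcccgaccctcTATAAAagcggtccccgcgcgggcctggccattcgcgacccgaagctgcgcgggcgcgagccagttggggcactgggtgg

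DpnII sites began at positions -176 and -74 from the start site, so the enzyme can cut this promoter at both. TTGCGC began at -185 and TATAAA at -30, and the ETS core GGAA occurred once, at -135. Both strands were searched. Of 32851 RefSeq promoters of the same length, 48.0% held GATC, 6.49% TTGCGC, 13.6% TATAAA and 96.0% GGAA. The GC content of the Cebpa promoter was 67.3%, against a median of 52.7%. Matches to such short words describe the letters only.

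A contact was called in a population where its deposited score was above 0. The smallest score above 0 in this batch was 1.3. Counts are the deposited whole numbers of read pairs per contact and population, with exact Poisson intervals, and shares have exact Clopper-Pearson intervals. All intervals are at 95% and cover counting error only. The first batch held 1312829 fetal and 1098957 adult counts over its listed contacts, and 54.0% of its counts within a chromosome were fetal.

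Both genes had more called contacts in adult than in fetal HSCs. The 3 Spi1 fragments had 8 fetal and 14 adult calls, 6 of them at the same promoter and bin in both populations. Cebpa had 3 fetal and 6 adult calls, 2 of them in both. Together, 11 of 23 contacts were called in fetal HSCs (47.8%, interval 26.8 to 69.4), 20 in adult HSCs (87.0%, 66.4 to 97.2) and 8 in both (34.8%, 16.4 to 57.3). Over the batch, 64.6% of listed contacts were called in fetal HSCs, 61.1% in adult HSCs and 25.7% in both. The adult share of these genes lay above the batch share, which covers all distances. Apart from the Sfpi1_1 contact 184.5 kb away, theirs lay nearer than the batch median of 153 kb for adult calls. Within 20 kb, 37.4% of batch contacts were called in adult HSCs alone and 36.9% in both. From 20 to 60 kb the shares were 45.8% and 34.0%. In the distance range holding most of these 23 contacts the shares were 38.6% and 31.5%, against 35.4% and 25.7% over all distances. The adult share of a range is its 2 shares together, so near ranges of the batch also lay above 61.1%. An adult excess at matched distance was not tested. The Spi1 fragments share a locus, and a pair with both ends captured may count from both, so the contacts are not independent and these intervals may be too narrow. At a score of at least 2.3 each gene kept 1 fetal and 2 adult calls, with 0 shared. With bins up to 5 kb apart merged, Cebpa had 1 and 2.

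Each of the 4 entries had more adult than fetal calls, as did 42.1% of first-batch promoters. Sfpi1_1 had 5 fetal and 8 adult calls, Sfpi1_2 had 2 and 4, Sfpi1 had 1 and 2, and Cebpa had 3 and 6. The median first-batch promoter had 11 fetal and 10 adult calls, so all 4 entries were below the batch median in both populations. On the scale of log2(calls + 1), fetal over adult, the differences were -0.58, -0.74, -0.58 and -0.81, in the same order. These stood at the 17.1, 13.0, 17.1 and 11.6 percentiles of the batch.

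The counts differed less than the calls. Over the listed Spi1 contacts 447 fetal and 468 adult counts were found, a fetal share of 48.9% (45.6 to 52.1). Over those of Cebpa there were 80 and 95, a fetal share of 45.7% (38.2 to 53.4). Both intervals lay below the batch share of 54.0%. The listed contacts are those that passed the score in at least 1 population, so this lower share is in part the same fact as the greater number of adult calls. As log2 of fetal over adult, the Spi1 counts gave -0.07 as deposited and -0.32 when scaled to the batch totals. Those of Cebpa gave -0.25, and 0.10 over the 2 contacts called in both populations.

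**Figure D1:**
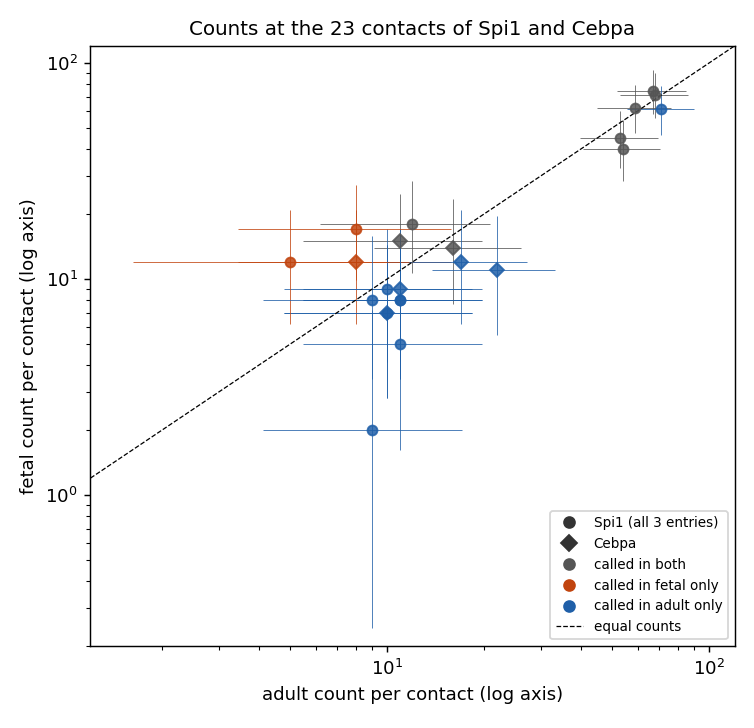
Deposited count of each of the 23 contacts in adult HSCs (horizontal, log scale) and fetal HSCs (vertical, log scale). Bars are exact Poisson 95% intervals, circles are Spi1, diamonds are Cebpa and colours give the population that called the contact. The line marks equal counts, and most points lie near it, with the fetal count of 2 at the Sfpi1_1 contact 184.5 kb away the farthest from it.

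The 3 Spi1 fragments lie within 15 kb of chromosome 2. Sfpi1 (90936568 to 90937051 in mm9) and Sfpi1_2 (90935267 to 90936258) have middles 1.05 kb apart. Sfpi1_1 (90922401 to 90922619) lies 14.3 kb before Sfpi1, at the distance of the upstream regulatory element. The table thus treats a fragment at that element's distance as a promoter in its own right. No gene annotation in mm9 was used here, so bins are given by coordinate, by the deposited marks and by the captured fragments they hold. In the RefSeq gene order Slc39a13 and Psmc3 precede Spi1, and Mybpc3, Madd, Nr1h3, Acp2 and Ddb2 follow it.

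Seen from the Sfpi1 fragment, the contact with the region about 14 kb upstream was called in adult HSCs alone, although it was well covered in both. Here the bin 90922001 to 90924001, which holds the Sfpi1_1 fragment, had 61 fetal counts (46.7 to 78.4) and 71 adult counts (55.5 to 89.6). The intervals overlap, and the fetal share was 46.2% (37.5 to 55.1), which includes the batch share. The adult score was 2.2 and the fetal score 0. The deposited marks gave this bin open chromatin in both populations and an active enhancer in adult HSCs alone. Sfpi1_2, although 1.05 kb from Sfpi1, had no listed contact within 2 kb or within 5 kb of that distance.

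The reverse view, from Sfpi1_1 toward the promoter, was called in both populations at nearly equal counts. The bin 90936001 to 90938001, which holds the captured Sfpi1 fragment and the end of Sfpi1_2, had 71 fetal and 68 adult counts with scores of 1.81 and 1.96. The next bin, from 90938001, had 62 and 59 with scores of 1.55 and 1.76. Both bins were marked as active promoters in both populations. The same pair of regions was therefore called in adult HSCs from both ends, and in fetal HSCs from the Sfpi1_1 end alone. Of first-batch promoters, 341 (17.5%) had any listed contact within 20 kb, and the 588 such contacts had median counts of 75 fetal and 69 adult.

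One bin, 90910001 to 90912001, was contacted by all 3 Spi1 fragments in both populations. It was marked as an active promoter with open chromatin in both. From Sfpi1_1, 11.5 kb away, it had 74 fetal and 67 adult counts with scores of 1.38 and 1.40. From Sfpi1_2, 24.8 kb away, it had 40 fetal counts (28.6 to 54.5) and 54 adult counts (40.6 to 70.5) with scores of 1.57 and 3.66. From Sfpi1, 25.8 kb away, it had 45 and 53 with scores of 2.05 and 3.64. The adult score thus exceeded the fetal score by more at the fragments near the start site than at Sfpi1_1. The fetal share from Sfpi1_2 was 42.6% (32.4 to 53.2), with its interval below 54.0%, whereas that from Sfpi1 was 45.9% (35.8 to 56.3) and included it. Among the 54 first-batch genes with 3 or more captured fragments, 32 (59.3%) had a bin listed from every fragment, and 22 (40.7%) had one called in both populations from every fragment.

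**Figure D2:**
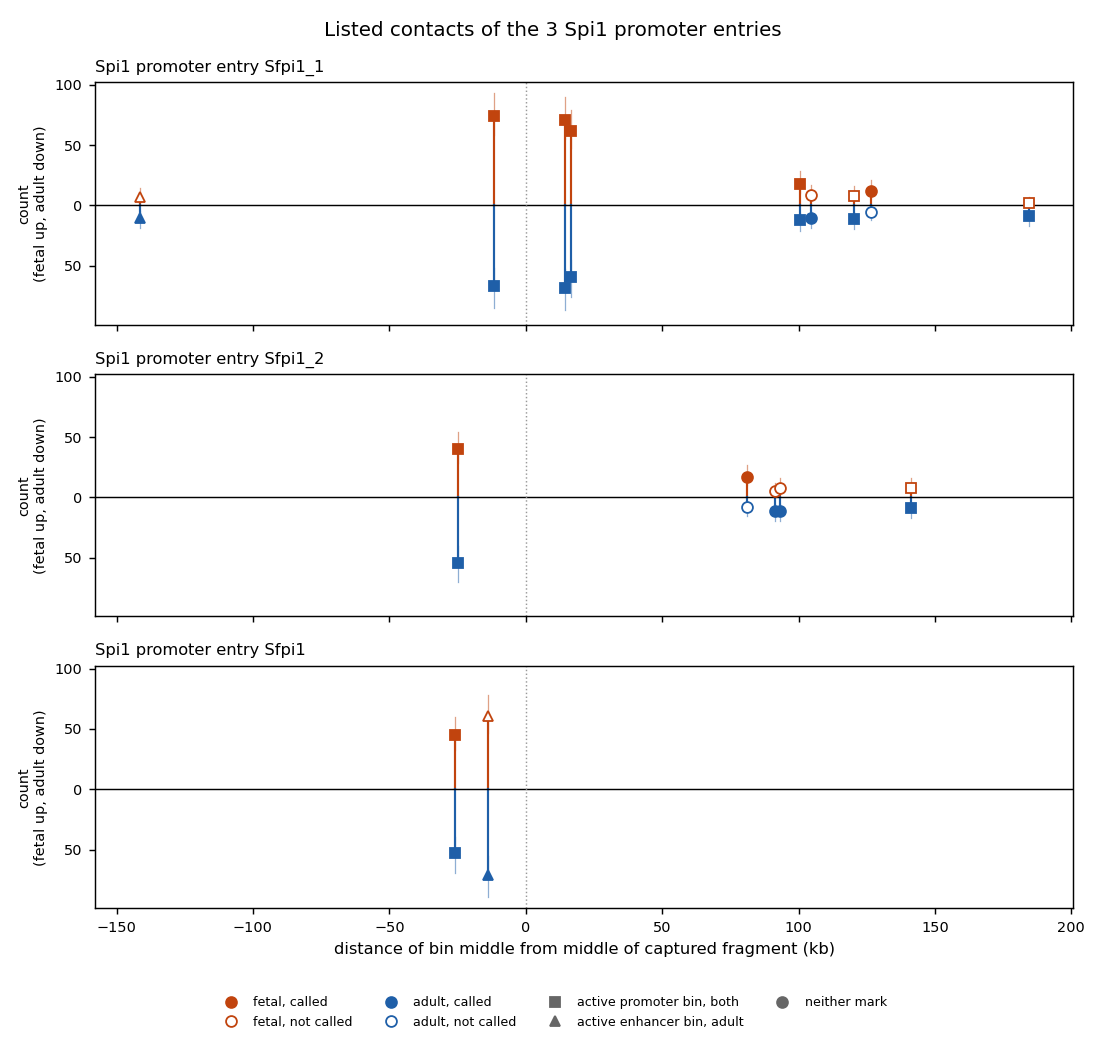
Deposited counts of the 16 listed Spi1 contacts by distance from the middle of the captured fragment (kb), for each of the 3 fragments. Fetal counts are drawn up and adult counts down, with exact Poisson 95% intervals as thin lines. Called contacts are filled, squares are active promoter bins and triangles are bins with an active enhancer in adult HSCs. Counts between 40 and 74 sit within 26 kb of the fragments, and all contacts beyond 80 kb have 18 or fewer.

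Beyond 80 kb the Spi1 contacts had few counts and were mostly called in 1 population. Sfpi1_1 contacted the bin from 91022001, 100.5 kb away and marked as an active promoter, with 18 fetal counts (10.7 to 28.4) and 12 adult counts (6.20 to 21), called in both with scores of 2.61 and 1.57. Its bin from 91048001, 126.5 kb away and without a mark, had 12 and 5 and was called in fetal HSCs alone (score 1.58). Its bins called in adult HSCs alone were those from 90780001 (7 fetal and 10 adult counts, score 1.88), 91026001 (9 and 10, 1.59), 91042001 (8 and 11, 2.12) and 91106001 (2 and 9, 1.54). In this group the fetal share was clear of the batch share at 1 bin, 91106001, at 18.2% (2.28 to 51.8). Bins of this group were listed through the adult score alone, so a low fetal share there is in part the same fact as the adult call. The bins from 91106001 and 91042001 were marked as active promoters in both populations.

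The bin from 90780001, 141.5 kb on the low-coordinate side of Sfpi1_1, was the other Spi1 contact at an active enhancer. The enhancer mark was again in adult HSCs alone, and so was the call. Across the batch, 1614 contacts lay at bins marked as active enhancers in adult HSCs alone. Of these 40.3% were called in adult HSCs alone, 31.0% in fetal HSCs alone and 28.7% in both, while 35.4% of all listed contacts were called in adult HSCs alone.

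From Sfpi1_2 the bin at 91016001, 81.2 kb away, had 17 fetal and 8 adult counts and was called in fetal HSCs alone (score 1.96). The bins from 91026001 (5 and 11 counts, score 1.48), 91028001 (8 and 11, 1.45) and 91076001 (8 and 9, 1.3) were called in adult HSCs alone. The last of these, 141.2 kb away, was marked as an active promoter and its score was the smallest the batch allows. The bin from 91026001 was listed from Sfpi1_1 as well, and in adult HSCs alone from both. Every count interval of these 4 bins overlapped between the populations.

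Active promoters made up most of the Spi1 contacts. Of 16 contacts, 9 were at bins marked as active promoters in both populations, which covers 6 of 8 fetal and 9 of 14 adult calls. Over the whole batch, active promoters took 15.6% of fetal calls and 18.3% of adult calls. Repeated use of the bin from 90910001 gives 3 of the 9. Also among the 9 are the bin from 90936001, which holds the captured Sfpi1 fragment, and the adjoining bin from 90938001. Both are the gene's own promoter region seen from Sfpi1_1, and both were called in both populations. The difference from the batch shares therefore rests on few separate bins. Open chromatin in both populations marked 11 of the 16 contacts and 44.7% of listed contacts in the batch. No mark was found at 5 of the 16 and at 39.2% of those in the batch. None of the 16 was at a bivalent promoter or at a primed or poised enhancer, marks that each took at most 1.77% of a population's calls in the batch. Fetal calls lay at a median distance of 25.3 kb, and adult calls at 92.2 kb. With a score of at least 2.3 the order turned, to 100.5 kb from 1 fetal call and 25.3 kb from 2 adult calls.

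Of the 13 separate bins contacted by Spi1, 4 were also contacted by captured fragments of Arhgap1, from 413 to 473 kb away. Over the batch, 11.3% of bins were contacted by more than 1 gene. Both Arhgap1 fragments contacted the bins from 91042001 and 91076001, and Arhgap1_1 alone contacted those from 91016001 and 91048001. In 3 of these 6 pairs of contacts both genes were called in the same population. At 91016001 Spi1 and Arhgap1_1 (8 fetal and 2 adult counts) were both called in fetal HSCs alone. At 91042001 Spi1 and Arhgap1_1 (7 and 7 counts) were called in adult HSCs, and Arhgap1 (8 and 4) in fetal HSCs. At 91048001 Spi1 was called in fetal HSCs and Arhgap1_1 in adult HSCs (3 fetal and 7 adult counts). At 91076001 Spi1 was called in adult HSCs, as was Arhgap1 (0 and 9 counts), whereas Arhgap1_1 was called in fetal HSCs (9 and 6).

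Cebpa (chromosome 7, 35904240 to 35904909 in mm9) contacted 2 stretches, one before and one after its promoter, and the calls after it were adult alone. From 20 to 60 kb, the range of the latter, 1597 of 3484 batch contacts (45.8%) were called in adult HSCs alone and 701 in fetal HSCs alone. In the RefSeq order Cebpg and Pepd precede Cebpa, and Slc7a10 and Lrp3 follow. At 50.4 kb on the high-coordinate side, the bin 35954001 to 35956001 had 11 fetal counts (5.49 to 19.7) and 22 adult counts (13.8 to 33.3), with scores of 0 and 2.66. The fetal share was 33.3% (18.0 to 51.8), below the batch share, though the count intervals overlap. This bin was listed through its adult score alone, so its low fetal share is in part the same fact as the adult call. At 54.4 kb the bin from 35958001 had 12 and 17, with scores of 0 and 1.93. Both bins were marked as open in both populations. No bin was listed within 2 kb or 5 kb of the 37 kb distance of the known enhancer, in either population. Of first-batch promoters, 51.5% had any listed contact in the whole range from 20 to 60 kb, so an empty window this narrow is common.

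The other Cebpa stretch lay 83.6 to 95.6 kb on the low-coordinate side, in 5 bins. The bin from 35810001 had 14 fetal counts (7.65 to 23.5) and 16 adult counts (9.15 to 26.0), with scores of 2.23 and 3.93, the highest score of either gene. The bin from 35812001 had 15 and 11, with scores of 2.62 and 1.90. These neighbours were the 2 Cebpa contacts called in both populations, with the higher score in adult HSCs at the first and in fetal HSCs at the second. The bin from 35808001 had 12 and 8 and was called in fetal HSCs alone (score 1.63). Those from 35814001 (9 and 11, score 1.84) and 35820001 (7 and 10, score 1.48) were called in adult HSCs alone. The count intervals overlapped at all 5 bins, and the calls of both populations fell within this 1 stretch, in part on different bins of it.

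**Figure D3:**
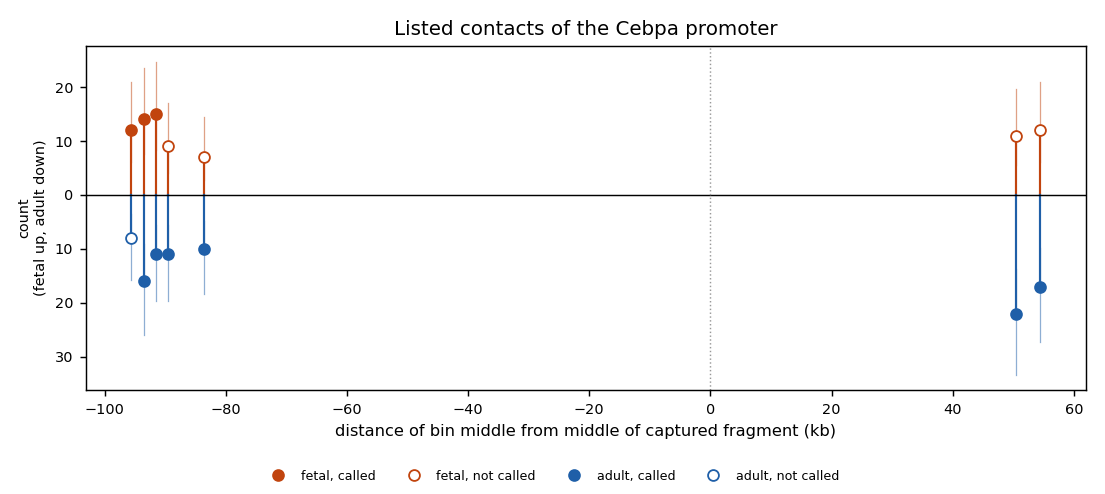
Deposited counts of the 7 listed Cebpa contacts by distance from the middle of the captured fragment (kb). Fetal counts are drawn up and adult counts down, with exact Poisson 95% intervals as thin lines and called contacts filled. The 5 bins from 95.6 to 83.6 kb before the promoter have overlapping intervals, and at 50.4 kb after it the adult count of 22 is above the fetal count of 11.

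None of the 7 Cebpa bins carried a promoter or enhancer mark in either population. Active enhancers took 12.7% of fetal and 13.1% of adult calls over the batch, and active promoters took the shares given above. Open chromatin marked 5 of them in both populations, which is 2 of 3 fetal and 5 of 6 adult calls. Open bins took 53.0% of fetal calls and 54.6% of adult calls over the batch. No other captured gene contacted these bins. Fetal calls lay at a median distance of 93.6 kb and adult calls at 86.6 kb, shorter than the batch medians of 178 and 153 kb.

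Transcript levels of both genes were higher in fetal HSCs, opposite to the calls. The deposited FPKM, a level per transcript length and library size, was 27.2 in fetal and 16.8 in adult HSCs for Sfpi1_1, 24.8 and 15.5 for Sfpi1, and 13.5 and 9.17 for Sfpi1_2. Cebpa had 1.81 and 0.905. The fetal level was thus 1.63, 1.60, 1.47 and 1.996 times the adult level. Spi1 was above the batch medians of 8.60 and 10.1 in both populations, except for Sfpi1_2 in adult HSCs, and Cebpa was far below both. Across the batch 48% of promoters had the higher FPKM in fetal HSCs, and 19.7% had this together with more adult calls. The authors' deposited table marks Sfpi1_1 and Sfpi1 as differentially expressed and leaves Sfpi1_2 and Cebpa unmarked, where 35.5% of first-batch promoters are marked. Without replicate values, no error can be given for these levels.

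**Figure D4:**
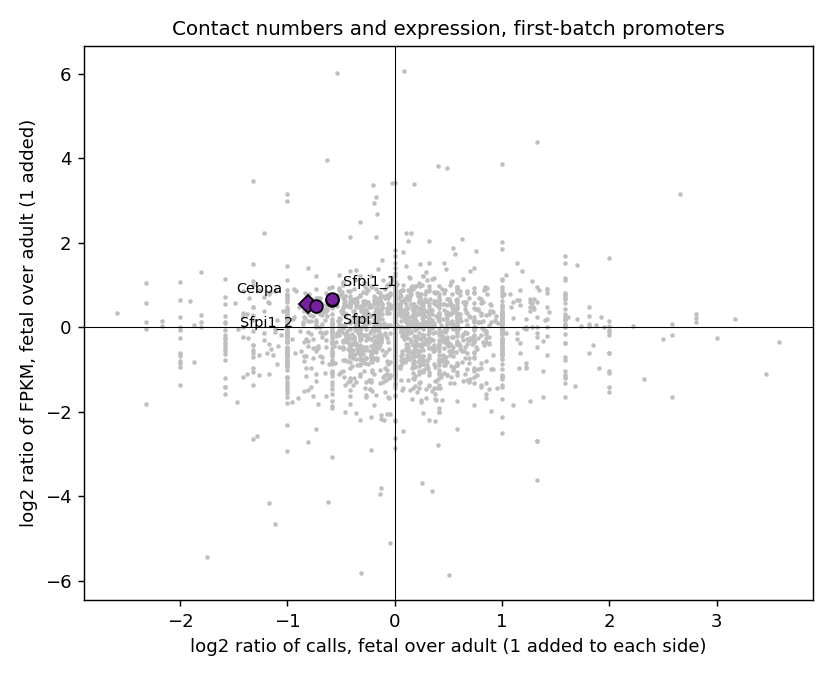
Difference in calls, as log2(calls + 1), fetal over adult (horizontal), against difference in FPKM, as log2(FPKM + 1), fetal over adult (vertical), for the 1952 first-batch promoters in grey and the 4 Spi1 and Cebpa entries in purple, where the points of Sfpi1 and Sfpi1_1 nearly coincide. The 4 entries lie between -0.81 and -0.58 on the horizontal axis and between 0.51 and 0.67 on the vertical, in the quadrant that holds 19.7% of promoters.

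Markers of differentiated myeloid and erythroid cells were also higher in fetal HSCs. Among stem cell markers, 8 of 10 were captured (all but Ly6a and Slamf1), with FPKM from 9.84 to 36.3 in fetal and 8.94 to 62.5 in adult HSCs, so the labelled cell type carried its markers in both. Of these 8, 6 were higher in adult HSCs (summed FPKM 191 fetal against 303 adult), the opposite direction to the myeloid and erythroid markers. Macrophage markers were higher in fetal HSCs for 8 of 8 captured genes of 9, with a summed FPKM of 61.5 against 2.90. Granulocytic markers were higher there for 8 of 8 captured genes of 10 (142 against 33.6), and erythroid markers for 7 of 7 (94.5 against 25.7). However, 7 of these granulocytic and 5 of these erythroid genes were captured in the second batch. The authors marked all 1829 promoters of that batch as differentially expressed, so a difference at these genes was given by their choice. Across all promoters, 48% in the first batch and 45.9% in the second had the higher FPKM in fetal HSCs. Megakaryocytic markers were higher in adult HSCs for 4 of 4 captured genes of 5 (24.3 fetal against 171 adult). No lymphoid or hepatocyte marker of the lists was among the captured promoters. Fewer cells of a type and less RNA per cell cannot be told apart in such bulk values, and the part of these markers in the FPKM difference of Spi1 and Cebpa was not tested.

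Genes known as targets of PU.1 or C/EBPα in myeloid cells mostly had the higher FPKM in fetal HSCs, as Spi1 and Cebpa did. In the first batch this held for 8 of 9 entries, with a median log2(FPKM + 1) difference of 1.28 against -0.04 over the batch. Mpo, the myeloperoxidase of granules, had 46.1 fetal and 2.04 adult FPKM, the largest such difference of the list. Csf1r, the receptor for macrophage growth factor and a direct PU.1 target, had 5.67 and 0.0390. Csf3r, the receptor for granulocyte growth factor, was the exception at 4.94 and 5.25. In the second batch it held for 9 of 9 entries (median 1.73), where 45.9% of promoters had the higher FPKM in fetal HSCs and the median was -0.54. The authors' deposited table marks all 1829 second-batch promoters as differentially expressed, so this batch describes genes chosen for a difference. Several targets, Mpo and Csf1r among them, are also on the marker lists.

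The calls of these targets did not go one way. In the first batch 1 of 9 entries had more fetal calls, 5 had more adult calls and 3 were equal. In the second batch, where 38.1% of promoters had more adult calls, 5 of 9 had more fetal calls, 2 had more adult calls and 2 were equal. Ctsg, the granule protease cathepsin G, had 4 fetal and 0 adult calls, and Prtn3, another granule protease, had 15 and 32. On the scale of log2(calls + 1) these had the largest differences of the list in each direction, that of Ctsg from few calls. Both had the higher FPKM in fetal HSCs, at 6.49 against 0.352 and 51.2 against 26.5.

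The other myeloid transcription factors were not shifted together. Of 26 listed genes 15 were captured. The 13 first-batch entries split into 6 with more fetal calls, 6 with more adult calls and 1 equal, and 4 had the higher FPKM in fetal HSCs. Fos and Jun, the AP-1 partners of C/EBP and PU.1 factors in monocytes, had 0.0899 and 2.18 fetal FPKM against 62.3 and 109 adult FPKM. Gfi1, a repressor that steers progenitors to granulocytes, went the other way, with 10.96 against 1.54 at 5 fetal and 13 adult calls. Its other fragment, Gfi1_1, had 10.1 against 1.38 at 9 fetal and 8 adult calls. Spic, an ETS factor close to PU.1 and found in red-pulp macrophages, had 20 fetal and 2 adult calls at nearly equal FPKM (1.003 and 0.842).

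In the second batch 4 of 5 myeloid factors had the higher FPKM in fetal HSCs, Irf8 among them at 7.48 against 0.925. Irf8, the partner of PU.1 in monocytes and dendritic cells, had 4 fetal and 7 adult calls. Klf4, a monocyte factor, was the exception in FPKM, at 0.161 against 3.33, with 0 fetal and 3 adult calls. The C/EBP relatives of Cebpa differed between them. Cebpb, of stress-induced granulopoiesis, had 44 fetal and 25 adult calls with FPKM of 7.81 and 3.93, and Cebpe, of late granulocytes, had 17 and 25 with 1.25 and 0.131. The second batch was called from a smallest score of 2, so its numbers of calls are not set beside those of Spi1 and Cebpa.

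**Figure D5:**
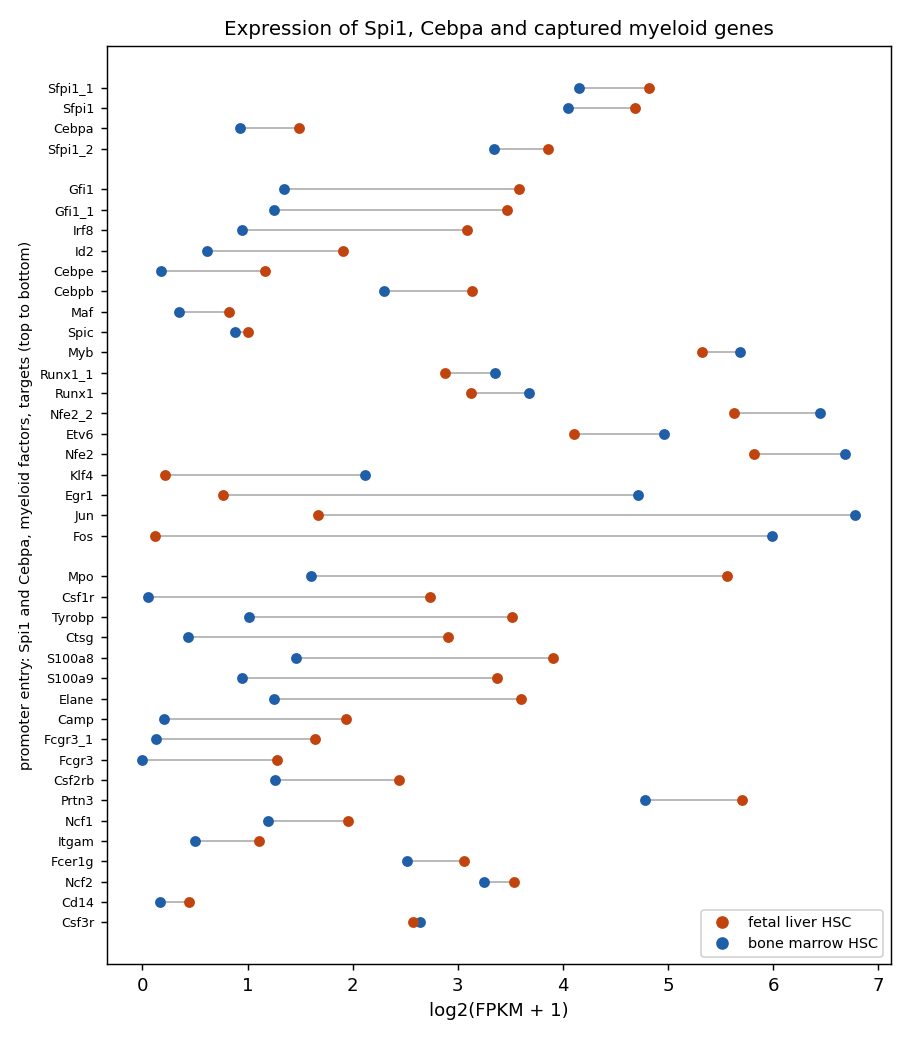
log2(FPKM + 1) of the deposited FPKM in fetal (orange) and adult (blue) HSCs for Spi1, Cebpa and captured promoters of the myeloid factor and target lists, 1 value per population. The fetal point of Spi1 and Cebpa lies 0.51 to 0.67 above the adult point, whereas Mpo (FPKM 46.1 fetal and 2.04 adult) and Fos (0.0899 and 62.3) lie far apart, in opposite directions.

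Of the erythroid and megakaryocytic factors, 7 of 8 were captured, and in the first batch 7 of the 9 entries of 6 genes had the higher FPKM in adult HSCs. The exceptions were the entries of Gata1, which opposes PU.1, at 15.6 against 8.09 and 12.4 against 5.98. Klf1, the erythroid factor, had the largest fetal excess, at 24.0 against 2.40 in the second batch. Of lymphoid factors, 4 of 7 were captured, all in the first batch, and 6 of the 8 entries of these 4 genes had the higher FPKM in fetal HSCs. Over that batch 48% of promoters did. In both lists the entries of a gene went the same way in FPKM, so they do not count separately. Ikzf1, which encodes the lymphoid factor Ikaros, had 27.0 against 15.9 and 27.9 against 20.0. Tcf3, which encodes the E proteins of early B cells, had 39.0 against 21.3 at its first fragment.

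The captured promoters most like each entry were found over FPKM and calls in both populations, as Euclidean distance over 4 values on the log2(value + 1) scale. They were Clec1b (0.42), Bex6 (0.53) and Cdkn1a_2 (0.60) for Cebpa, and Nudt1_1 (0.44), Fam60a_1 (0.45) and Ikzf1_1 (0.51) for Sfpi1_1. For Sfpi1_2 they were Dohh_1 (0.30), Setd1a (0.46) and Gata1 (0.58), and for Sfpi1 they were Sms (0.14), Pbk (0.21) and Srsf10 (0.46). Numbers of calls this small leave many promoters with the same values, so near neighbours are common.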

How the data were processed

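Promoter Capture-C libraries of fetal and adult HSCs gave a table with 1 value per contact and population and no column per library, per the file headers. The authors deposited a count and a score for each contact of a captured fragment with a bin of 2 kb, with a score of 0 where no call was made. They also deposited FPKM per promoter, and 0 or 1 marks (other values) for promoter, enhancer and open-chromatin (ATAC) bins. How the count, score, FPKM and marks were made is not given in the sources used here. Trim Galore 0.41, Bowtie2 2.2.2 and the mm9 build are named per the submitters' processing notes. The libraries were read as paired ends, per the labels' protocols.

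Distance ran between the middles of the fragment and the bin. Ratios used log2(value + 1). Overlap required the same fragment and bin. Calls, counts, marks and FPKM were summarised with Python 3.11.15, pandas 2.3.3, NumPy 2.4.6 and SciPy 1.17.1, and figures were drawn with matplotlib 3.10.9. The scripts were tested on simulated data. Of 3374 names in the table, 3046 matched a RefSeq GRCm38.p6 symbol, 301 a synonym and 27 neither. RefSeq was used for names and gene order. Every value column was assigned to a population, leaving 0 unassigned. A count test over libraries was planned but needs values per library. The members and gene lists were chosen with earlier results of these data known. All member contacts are named. From the lists, genes with the highest and lowest ratio of FPKM or of calls are named, and the others named were chosen after their values were seen.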

Additional observations from a re-analysis of the deposited data

How the results depend on the processing

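Of 97 alternative values for 43 results, 66 stayed within their interval or within 1.5 times and 31 moved. Some of the 66 could not move, so their number does not measure how stable the results are. No contact of these genes lay beyond 1 Mb, so a limit at 1 Mb changed nothing. A count of 0 also stays 0 at a higher score, and a list of 1 entry has the same median per gene. Also among the 66, the log2 count ratio of Cebpa turned from -0.25 to 0.10 over the contacts called in both populations, within its counting interval. Most moved with the score. At a score 1 unit higher (at least 2.3) Spi1 kept 1 fetal and 2 adult calls, all at active promoter and open bins, with 0 adult calls at active enhancers. Cebpa kept 1 fetal and 2 adult calls, all at open bins. Adult minus fetal calls were then 1 for each gene, and the overlap of the populations was 0% of fetal and of adult calls for both genes. The Spi1 median distances became 100.5 kb (fetal) and 25.3 kb (adult), which turned their order. With called bins up to 5 kb apart merged, Cebpa had 1 fetal and 2 adult calls, a difference of 1, and 100% of the fetal calls were shared. With bins within 5 kb taken as shared, the Cebpa overlap was 100% of fetal calls. Within 20 kb it was 100% of fetal calls for both genes and 78.6% of adult calls for Spi1. Spi1 counts scaled to the batch totals gave a log2 ratio of fetal over adult of -0.32, against -0.07 as deposited. A pseudocount of 0.1 gave Cebpa a log2 FPKM ratio of 0.92, against 0.56. With 1 entry per gene, the median log2 ratio of calls was 0 for the erythroid and megakaryocytic factors (0.26 with every entry) and -0.022 for the myeloid transcription factors (0 with every entry).

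No paired analysis was possible because the deposited columns carry no replicate, and leaving out a library could not be done for the same reason. Counts under about 20 per contact limit what can be seen beyond 80 kb, where most calls were in 1 population with overlapping count intervals. Calls, FPKM and marks have no error here.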
